A study of Homo sapiens with 24 samples.

Results

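The SR splicing factors followed here are 10 genes, SRSF1, SRSF2, SRSF3, SRSF4, SRSF5, SRSF6, SRSF7, SRSF10, SRSF11 and TRA2B, chosen by name and matched to the gene identifiers of the expression table. All 10 were found among its 12285 genes. RNA was sequenced from K562 cells, an established human leukaemia line with erythroid features, after centrifugal elutriation, which separates cells by size and so gives a population that enters the cell cycle together. The series ran to 46 h with a library every 2 h, 24 in all and 1 per time point, with no treatment, knockout or second line. There were no replicates, so each value is that of a single library, and p-values below concern the order of values in time within this 1 series. The study looked for time points at which many transcript levels depart from those of neighbouring samples, which it calls STRIPEs. It named 16 h and 18 h as STRIPEs and 32 h as a mild one. The study holds that STRIPEs are likely technical in origin and do not reflect biology, though the step that causes them remained unknown.

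SR proteins hold RNA recognition motifs and a domain rich in arginine and serine (the RS domain). They bind exonic enhancers in pre-mRNA, recruit the spliceosome to nearby splice sites, and are moved in and out of nuclear speckles by kinases that phosphorylate the RS domain. Many of them limit their own level: the protein promotes an alternative splice of its own transcript that brings in a premature stop codon, and the product is degraded by nonsense-mediated decay (NMD) or kept in the nucleus.

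Transcripts of that kind are annotated for each of the 10 genes. In GENCODE 29 (GRCh38), 10 of 10 had at least 1 transcript of the NMD class, against 45.7% of 10386 protein-coding genes tested, and 8 of 10 had a transcript with a retained intron, against 59.9%. The exceptions for the retained intron were SRSF6 and SRSF11. The members also had more annotated transcripts, a median of 11.5 against 8 for the protein-coding genes tested. The shares were not adjusted for that number, so the contrast may reflect it. The 4 sequences that follow are from GENCODE 29 transcripts and show where such a reading frame ends. Each is a stretch of an exon that no coding transcript of its gene shares, read 5′ to 3′ on the transcribed strand, with the premature stop codon in capitals. The exon is 456 bases long in SRSF3 (chr6:36599825-36599854, plus strand), 175 bases in SRSF4 (chr1:29166009-29166038, minus strand), 268 bases in SRSF6 (chr20:43459275-43459304, plus strand) and 449 bases in SRSF7 (chr2:38749319-38749346, minus strand). The positions are those of the printed stretch in GRCh38. With first and last exons left out, no such exon was found for the other members. SRSF3 had another of 98 bases, SRSF4 another of 195 bases and SRSF7 others of 69 and 276 bases, which are not printed.
SRSF3: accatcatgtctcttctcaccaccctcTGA
SRSF4: ggagaggttcggttcttacaaggaaaaTGA
SRSF6: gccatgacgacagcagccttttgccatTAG
SRSF7: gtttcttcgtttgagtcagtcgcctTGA
The expression table gives 1 value per gene, so coding transcripts and those that hold such an exon were summed and were not separated in any value below.

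Transcript levels are given in FPKM, which scales fragment counts to transcript length and to library size and so allows levels of different genes to be set side by side. The numbers of reads are not given in the sources used here, so no counting error can be stated. The table's summed FPKM lay between 456791 and 520382 at 22 time points and stood at 566247 at 16 h and 591309 at 18 h. The 9 erythroid genes reported (globins, TFRC, GATA1, KLF1, ALAS2 and TAL1) were all present, with a summed level of 3742 to 7712 FPKM over those 22 time points, and it was 2467 FPKM at 16 h and 2135 FPKM at 18 h. Of 7 genes of other lineages 2 were present (COL1A2 and EPCAM), with a summed level of 58.8 to 74.7 FPKM at the 22 time points, 116 FPKM at 16 h and 118 FPKM at 18 h. In RNA from whole cultures, fewer cells of a type or cell-cycle phase and less RNA per cell cannot be told apart.

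The SR genes were among the more abundant messages. With 16 h and 18 h set aside, the median level over the remaining 22 time points was highest for SRSF3 (368 FPKM), followed by SRSF1 (353), SRSF2 (339), TRA2B (279), SRSF7 (248.6), SRSF5 (203), SRSF11 (153), SRSF10 (149), SRSF6 (82.5) and SRSF4 (77.0). The order held firmly only between some neighbours. SRSF10 was above SRSF6 at 24 of 24 time points, and SRSF2 was above TRA2B, TRA2B above SRSF7, and SRSF5 above SRSF11, each at 22 of 24. SRSF3 exceeded SRSF1 at only 9 of 24 time points although its median was higher, and SRSF6 exceeded SRSF4 at 13 of 24, so neither of these neighbours can be ordered. Together the 10 genes summed to between 1862 FPKM at 46 h and 3325 FPKM at 18 h, which was 0.408% of all FPKM at the lowest share, at 46 h, and 0.584% at the highest, at 6 h.

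**Figure D1:**
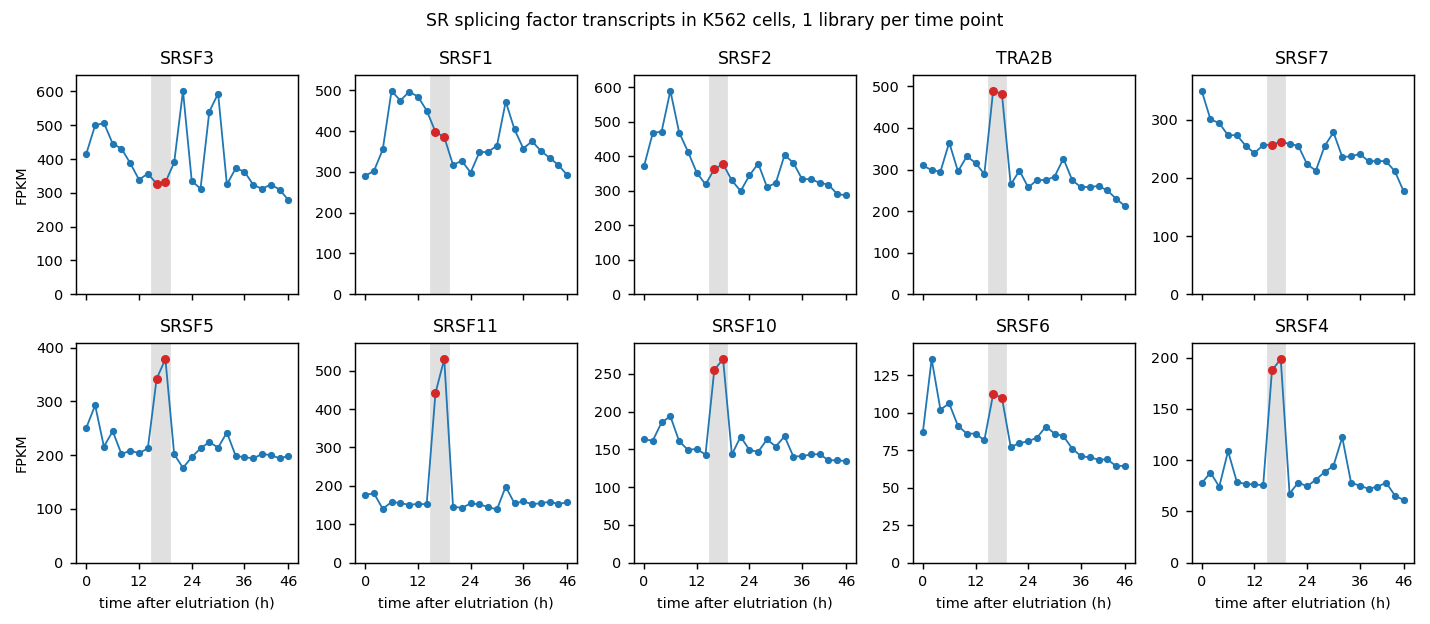
FPKM (vertical axes, each starting at 0) of the 10 SR genes against time after elutriation in hours, 1 point per library, with 16 h and 18 h in red on a grey band. SRSF11, SRSF4, SRSF10, TRA2B and SRSF5 peak inside the band, whereas SRSF1 and SRSF2 are highest at 6 h, SRSF7 at 0 h, SRSF6 at 2 h and SRSF3 at 22 h.

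At 16 h and 18 h the SR genes did not move as a block: 5 stood above every other time point and the rest did not. Each library pair was compared with the straight line between its flanks, 14 h and 20 h, on log2(FPKM + 1), and a mean deviation of 1 (2-fold) or more in size was called. SRSF11, an RS-domain protein that associates with the U2AF splice-site factor, went from 152 FPKM at 14 h to 441 FPKM at 16 h and 530 FPKM at 18 h, came back to 146 FPKM by 20 h, and ranged from 138 to 198 FPKM over the 22 other time points. SRSF4, which is among the SR proteins with the longest RS domain, stood at 75.3 FPKM, 187.6 FPKM, 198 FPKM and 67.3 FPKM at the same hours. Both genes were thus higher at each of the 2 STRIPE time points than in any other library. The deviation was 1.70 on the log2 scale for SRSF11 (3.24-fold) and 1.43 for SRSF4 (2.69-fold), whereas at 16 other consecutive pairs of time points it lay between -0.29 and 0.23 for SRSF11 and between -0.29 and 0.37 for SRSF4.

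These 2 of 10 members were the only ones at least 2-fold above their flanks, beside 8.95% of all 12253 genes whose mean reached 1 FPKM, and 0 of 10 were at least 2-fold below, beside 7.11%. No test was made of these counts, since there is 1 library per time point. At a 1.5-fold limit, 5 of 10 were above (23.9% of all genes) and 0 below (16.8%). The median deviation was 0.64 for the SR genes and 0.14 for all genes tested. SRSF8 (0.25) and SRSF9 (-0.95) carry the same family name but are not among the 10. They are counted with the other RS-domain proteins below.

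SRSF10, TRA2B and SRSF5 formed a middle group. SRSF10, a splicing repressor when it is dephosphorylated in heat-shocked or mitotic cells, went from 143 FPKM at 14 h to 255 FPKM at 16 h and 270 FPKM at 18 h, and came back to 143 FPKM by 20 h. TRA2B, the homologue of the fly sex-determination splicing factor transformer 2, which binds GAA-rich enhancers, stood at 289, 489, 482 and 264 FPKM at these hours, and SRSF5 at 212, 342, 379 and 201 FPKM. In all 3 genes both STRIPE libraries exceeded the 22 others, whose highest values were 194 FPKM for SRSF10, 365 FPKM for TRA2B and 293 FPKM for SRSF5. Their deviations were 0.87, 0.81 and 0.80 (1.83-, 1.76- and 1.74-fold), short of the 2-fold limit. With SRSF11 and SRSF4, 5 of 10 members thus had both libraries above all others, beside 30.9% of all genes.

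The remaining members moved little or not at all. SRSF6 stood at 81.6, 112, 110 and 77.2 FPKM from 14 h to 20 h, a deviation of 0.48 (1.40-fold) that was above its 16 reference pairs (highest 0.29), but the level at 2 h, 136 FPKM, was higher than both. That makes 6 of 10 members above each of their own reference pairs, beside 43.6% of all genes, and 0 of 10 below, beside 28%. SRSF2, which unlike most of the family stays in the nucleus, had a deviation of 0.19, and SRSF1, the first of the family to be described, had 0.05. SRSF7 was nearly level, at 257, 257, 262 and 258 FPKM (deviation 0.01). SRSF3, the smallest SR protein and with SRSF7 an adaptor for the mRNA export receptor NXF1, was the only member below its flanks, at 357, 327, 331 and 390 FPKM (deviation -0.18, reference pairs -0.82 to 0.83). For these 4 genes the deviation lay within the range of their reference pairs.

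**Figure D2:**
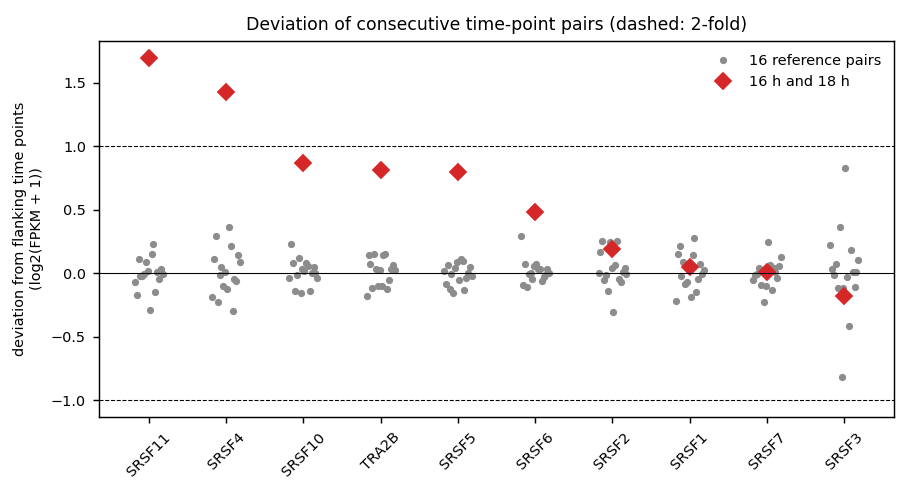
Deviation of a pair of consecutive time points from the line between its flanks on the log2(FPKM + 1) scale (vertical axis) for each SR gene (horizontal axis), with 16 h and 18 h as red diamonds and the 16 reference pairs as grey points, and dashed lines at 2-fold. The diamonds of SRSF11 (1.70) and SRSF4 (1.43) are above the upper dashed line, and those of SRSF2, SRSF1, SRSF7 and SRSF3 lie among their grey points.

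The directions near 0 turned with the scaling. When each library was centred on its median log2 value, which brought the median deviation of all genes from 0.14 to 0.03, SRSF1 changed to -0.06 and SRSF7 to -0.10, and 7 of 10 members remained above 0. With upper-quartile scaling SRSF2 was also below 0, at -0.04, 6 of 10 members were above 0, and the median was -0.06 over all genes and 0.40 over the members. SRSF11 and SRSF4 were the members past 2-fold under both scalings. Of all genes tested, 802 were at least 2-fold above with median centring and 579 with upper-quartile scaling. The transcripts of the SR genes had a median GC content of 44.6%, below the 49.5% of protein-coding genes tested, and deviations at 16 h and 18 h were higher among genes of low GC content. With that trend taken out, SRSF11 stood at 1.21, SRSF4 at 1.15, TRA2B and SRSF5 at 0.40, SRSF10 at 0.34, SRSF7 at -0.51 and SRSF3 at -0.52, and the members' median was 0.23. SRSF7 and SRSF10 were close in GC content (41.1% and 40.8%) and had deviations of 0.01 and 0.87. SRSF1 and SRSF2 had the highest GC content of the members (48.9% and 50.1%) and deviations of 0.05 and 0.19. The part of GC content was not tested.

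With 40 h and 42 h, the matched hours of the next cycle, as the reference, the same 2 members were past 2-fold. Of all genes tested, 1154 were at least 2-fold above by that reference. The 16 h and 18 h libraries are the same in both comparisons, so this is no second observation of them. At 40 h and 42 h SRSF11 stood at 155 and 158 FPKM and SRSF4 at 73.9 and 77.9 FPKM, so the 16 h and 18 h libraries were 3.08-fold and 2.52-fold higher. TRA2B was 1.90-fold, SRSF10 1.87-fold, SRSF5 1.79-fold and SRSF6 1.61-fold higher than at 40 h and 42 h. SRSF3 (1.03-fold), SRSF7 (1.13-fold), SRSF1 (1.14-fold) and SRSF2 (1.15-fold) were the 4 with the smallest difference.

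The deposited table of cleaned scores, in which the authors had converted each gene to Z-scores and given each library the same set of sorted values, still held part of this pattern. SRSF11 scored 1.36 at 16 h and 1.73 at 18 h, above its highest score elsewhere (0.12 at 2 h). SRSF4 scored 1.59 and 0.98 against at most 0.83 at 32 h, and SRSF10 1.34 and 0.94 against at most 0.77 at 4 h. These 3 of 10 members had both scores above all 22 others, beside 12.1% of all genes, and 0 of 10 had both below, beside 6.91%. TRA2B kept only 16 h above the others (1.63, and 0.66 at 18 h, against 0.78 at 6 h), and SRSF5 kept neither.

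Genes that work with the SR proteins were followed in lists chosen with earlier results of these data known. The counts are over each whole list, of which only some genes are named here. Of 33 other RS-domain proteins 31 were in the table, and 12 of 31 were at least 2-fold above their flanks and 1 below, with a median deviation of 0.79. The largest deviation among them was that of PNN, a speckle and exon-junction protein (500 and 568 FPKM in the 2 STRIPE libraries, with flanks at 81.4 and 73.4 FPKM, 6.82-fold). LUC7L3, a U1-associated factor, deviated by 1.98, PPIG, a cyclophilin of the speckles, by 1.93, RSRC2 by 1.66 and SRRM1, a splicing coactivator, by 1.64. SCAF1 was the 1 gene below, at -1.11. The closest relatives of the members differed: TRA2A, the paralogue of TRA2B, deviated by 0.87, close to TRA2B, whereas SRSF9, the nearest relative of SRSF1, deviated by -0.95 and SRSF1 by 0.05.

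Of the 11 kinases and transport factors of SR proteins, 11 had a deviation above 0, beside 58.1% of all genes (median 0.66), with NXF1 (1.64) and PRPF4B (1.15) past 2-fold and the RS-domain kinases SRPK1 (0.60), SRPK2 (0.85) and CLK1 (0.21) below it. In the NMD and exon-junction list 4 of 14 were past 2-fold (UPF3B 1.68, RBM8A 1.64, CASC3 1.32 and UPF2 1.20), 0 were below, and the median was 0.42. The NMD helicase UPF1 (-0.96) and the exon-junction helicase EIF4A3 (-0.98) came short of 2-fold below. Among the hnRNPs, RNA-binding proteins that often oppose SR proteins at splice sites, 8 of 28 were above and 0 below (median 0.61), led by HNRNPA2B1 (1.88), HNRNPH1 (1.81), HNRNPH3 (1.56), HNRNPR (1.16) and HNRNPD (1.16). The counts at the 2-fold limit are beside the 8.95% above and 7.11% below over all genes, and 1 library per time point allows no test of them.

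**Figure D3:**
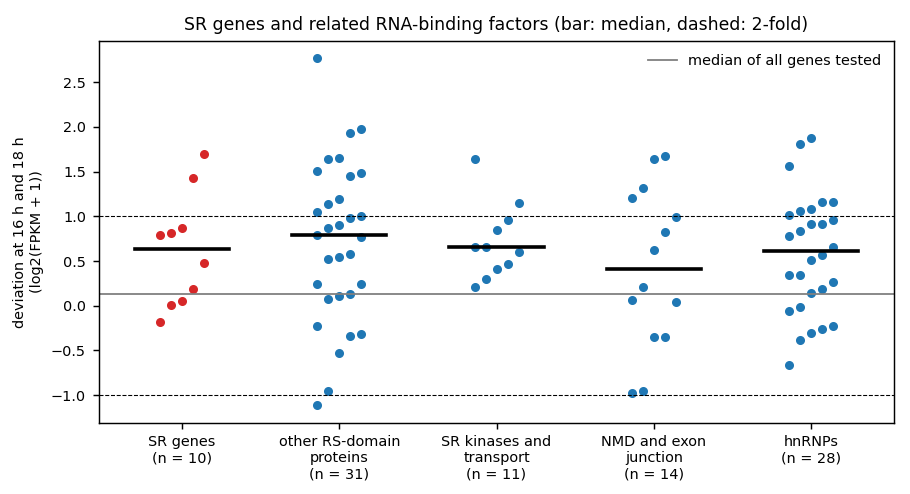
Deviation at 16 h and 18 h from the line between 14 h and 20 h on the log2(FPKM + 1) scale (vertical axis) for the 10 SR genes (red) and 4 lists of related factors (blue), 1 point per gene, with black bars at the list medians, a grey line at the median of all genes tested (0.14) and dashed lines at 2-fold. Each list spreads from near or below 0 to above 1.5, and its median is above the grey line.

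Of 6 nuclear-retained long RNAs in the table, 2 (MALAT1 and TUG1) were at least 2-fold above their flanks at 16 h and 18 h, beside 8.95% of all genes. MALAT1, a non-coding RNA of the nuclear speckles, stood at 11073 and 12319 FPKM in the 2 STRIPE libraries, with flanks at 1100 and 851 FPKM. TUG1 deviated by 1.19, LINC-PINT by 0.35, MEG3 by 0.12, FTX by 0.07 and NEAT1 by -0.78. The summed level of the 6, most of it MALAT1, was 868 to 1931 FPKM at the 22 other time points, 11302 FPKM at 16 h and 12540 FPKM at 18 h. Of the 9 erythroid genes reported, 6 were at least 2-fold below their flanks, beside 7.11% of all genes. The part of nuclear RNA, of these lists and of GC content in the values of the SR genes was not tested.

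SRSF1 was the SR gene with the best rank in a test for a 24 h cycle, given below. It began at 290, 302 and 355 FPKM from 0 h to 4 h and reached 499 FPKM at 6 h. It then held 475, 496, 485 and 450 FPKM from 8 h to 14 h, and came down through 398 FPKM at 16 h and 385 FPKM at 18 h to 317 at 20 h and 298 at 24 h. In the next cycle it rose to 472 FPKM at 32 h, stood at 404 FPKM at 34 h and was back at 292 FPKM at 46 h. The high values thus came at 6 h to 14 h and again at 32 h and 34 h. The later high was short: SRSF1 stood at 364 FPKM at 30 h, 357 FPKM at 36 h and 375 FPKM at 38 h. The study named 32 h a mild STRIPE, and 28.9% of all genes had their highest second-day level there. For scale, CCNE2, a cyclin of the G1/S transition, was highest at 2 h (38.9 FPKM) and CCNB1, the mitotic cyclin, at 22 h (237 FPKM).

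In a rank test for a cycle of 24 h, which is assumed here and takes the largest Kendall statistic over 12 phases (JTK), SRSF1 was ranked 27 of 12285 genes (adjusted permutation p = 0.00259 from 100000 random orderings, Benjamini-Hochberg adjusted over all genes, phase 10 h). The unadjusted permutation p of 1e-05 is the smallest that these orderings can give. It was the only member called, 1 of 10 beside 13% of all genes. SRSF3 (adjusted permutation p = 0.0538) and SRSF2 (0.0641) were near the limit of 0.05, SRSF6 had 0.142, SRSF4 0.255, TRA2B 0.351, SRSF10 0.390 and SRSF5 0.483, and SRSF11 and SRSF7 both had 0.630. Of the cyclins above, CCNE2 was called (adjusted permutation p = 0.00508) and the mitotic cyclin CCNB1 was not (0.142). A member that is not called is thus not shown to lack a cycle. A called member is likewise not shown to have one. The random orderings treat neighbouring time points as unrelated, so a slow drift can also give a low p. SRSF1 was called with each of the 24 time points left out in turn (adjusted permutation p 0.00122 to 0.00485) and with a period of 20 h (0.0349), but not with 28 h (0.0609).

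The number of members called differed without the 16 h and 18 h libraries. Without them, 5 of 10 were called beside 16.2% of all genes: SRSF1 (adjusted permutation p = 0.00129), SRSF6 (0.0111), SRSF4 (0.0178), SRSF2 (0.0197) and SRSF10 (0.0397). SRSF4 and SRSF10 are members that stood above all other time points in those libraries, and SRSF2 and SRSF6 are not. With 16 h and 18 h replaced by interpolated values the count was also 5 of 10 beside 18.4%, and without 6 h and 32 h as well, a choice made after seeing the data, it was 2 of 10 beside 8.64%, SRSF1 (0.00472) and SRSF6 (0.0262). In that last setting SRSF2 and SRSF4 both had 0.0670 and SRSF10 0.116, and the calls over all genes went from 1993 without 16 h and 18 h to 1062 in the same setting.

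Those 2 time points held local highs of several members. Among the 22 time points 4 of 10 members were highest at 6 h, beside 12.2% of all genes: SRSF1, SRSF2 (590 FPKM, against 472 FPKM at 4 h and 469 at 8 h), TRA2B (365 FPKM) and SRSF10 (194 FPKM). Within the second cycle, 7 of 10 had their highest level at 32 h, beside 28.9% of all genes, the others being SRSF3 and SRSF7 at 30 h and SRSF6 at 28 h. Against the mean of its neighbours SRSF4 was higher by 0.50 on the log2 scale at both 6 h (109 FPKM) and 32 h (122 FPKM), and SRSF11 by 0.44 at 32 h (198 FPKM). No member was past 2-fold at 6 h, beside 1.44% of all genes in either direction, or at 32 h, beside 1.46%.

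SRSF3 rose more than any other member at 22 h and at 28 h and 30 h, but genes outside the family shared its course. It went from 390 FPKM at 20 h up to 602 at 22 h and down to 335 by 24 h, and again from 312 FPKM at 26 h up to 540 at 28 h and 593 at 30 h and down to 325 by 32 h. The level thus went up and down by over 1.5-fold within neighbouring samples on both occasions. At 22 h it was 0.73 above the mean of its neighbours on the log2 scale, higher than 99.2% of all genes, and at 28 h and 30 h it was 0.83 (1.78-fold) above the line between 26 h and 32 h, where 2.52% of all genes were at least 1.5-fold above. At 28 h and 30 h 99 of all genes were at least 2-fold above their lines, against 10 to 48 at the other reference pairs. The rise may thus belong in part to these single libraries, which was not tested. Of the other members, SRSF7 was 0.25 above its line at 28 h and 30 h, from 212 FPKM at 26 h to 278 FPKM at 30 h, and SRSF2 was 0.30 below. Over the 22 time points SRSF3 correlated with SRSF7 at Pearson's r = 0.70, with SRSF10 at 0.65 and with SRSF6 at 0.62, and SRSF7 with SRSF6 also at 0.70. The genes most like SRSF3 were NDUFB4 (r = 0.89), a subunit of mitochondrial complex I, and the ribosomal protein genes RPS20 and RPL37A (both 0.87), named after their values were seen.

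The promoters of SRSF3 and SRSF7 each held a TATA box close to the transcription start. RefSeq windows from 250 bases before to 50 bases after the start (GRCh38.p14) were on hand for 9 of the 10 genes, 11 windows in all. A TATA box (TATAAA, either strand) was found in 3 of the 11 windows, of 3 members, against 11.5% of 35116 windows. SRSF7 and SRSF11 each had another window without it. The share counts a match at any position, so it is no background for a box close to the start. In SRSF3 it began 30 bases before the start and in SRSF7 27 bases before, while in SRSF11 it lay on the other strand, 206 bases before. A CCAAT box (CCAAT, either strand, in 34.6% of windows) was found only in SRSF3, where there were 2, at 70 and 55 bases before the start. The windows upstream of SRSF3 (chr6:36594112-36594361, plus strand) and SRSF7 (chr2:38751362-38751611, minus strand) are shown because they were the only 2 of the 9 members with a window to hold TATAAA there, 5′ to 3′, with TATAAA and CCAAT, the latter on either strand, in capitals.
SRSF3: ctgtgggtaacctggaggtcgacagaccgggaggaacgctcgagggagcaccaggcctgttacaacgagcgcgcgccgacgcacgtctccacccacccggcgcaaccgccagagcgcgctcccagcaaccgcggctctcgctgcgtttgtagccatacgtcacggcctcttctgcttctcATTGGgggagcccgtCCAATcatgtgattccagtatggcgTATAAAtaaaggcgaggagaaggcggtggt
SRSF7: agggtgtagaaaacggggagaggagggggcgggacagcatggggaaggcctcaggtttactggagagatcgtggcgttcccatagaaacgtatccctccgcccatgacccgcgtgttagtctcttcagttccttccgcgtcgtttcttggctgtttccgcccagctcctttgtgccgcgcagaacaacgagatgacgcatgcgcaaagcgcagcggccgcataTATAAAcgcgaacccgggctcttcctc
The motifs do not overlap each other. The E2F-type motif TTTCCCGC, in 1.63% of windows, was found in those of SRSF10 and TRA2B. CCGGAAGT, an ETS-type motif in 4.14% of windows, was in those of SRSF4 and SRSF5. GGGCGG, the GC box, in 45%, was in 6 of the 11 windows, of 5 members (SRSF4, SRSF6, SRSF7, SRSF11 and TRA2B). A match is only a description of the letters in these windows.

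Levels of 9 of the 10 SR genes were lower in the next cycle than in the first by the median over matched hours, beside 48.5% of all genes, as a description of single libraries with no test. Each of 10 hours of the first day (0 h to 14 h, 20 h and 22 h) was compared with the time point 24 h later on log2(FPKM + 1). SRSF6 went from a median of 86.6 FPKM to 78.5 FPKM and was lower at 10 of 10 matched hours (median difference -0.24). TRA2B (298 to 266 FPKM, -0.23), SRSF7 (266 to 232 FPKM, -0.21) and SRSF2 (393 to 334 FPKM, -0.15) were lower at 9 of 10. These 4 of 10 members stand beside 8.18% of all genes that were lower in at least 9 of 10 matched hours.

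The median difference was -0.13 over the 10 members and 0.01 over all genes tested, and 9 of 10 members were below 0. SRSF11 was the exception, with a median of 152 FPKM in the first day and 153 FPKM in the next (0.04). SRSF3 had a median difference of -0.23, but its matched hours ran from -1.11 at 22 h to 0.41 at 6 h. The end of the series held the lowest values: 7 of 10 members were lowest at 44 h or 46 h, beside 10.6% of all genes, with SRSF7 at 177 FPKM, TRA2B at 212 FPKM and SRSF4 at 60.9 FPKM at 46 h. The later time points differ from the earlier ones in hours of culture and may differ in synchrony, which was not measured. These cannot be told apart here. Among the lists, the median difference was -0.05 over the 31 other RS-domain genes, -0.11 over the 28 hnRNPs, -0.12 over the 14 NMD and exon-junction genes and 0.05 over the 11 kinases and transport factors.

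**Figure D4:**
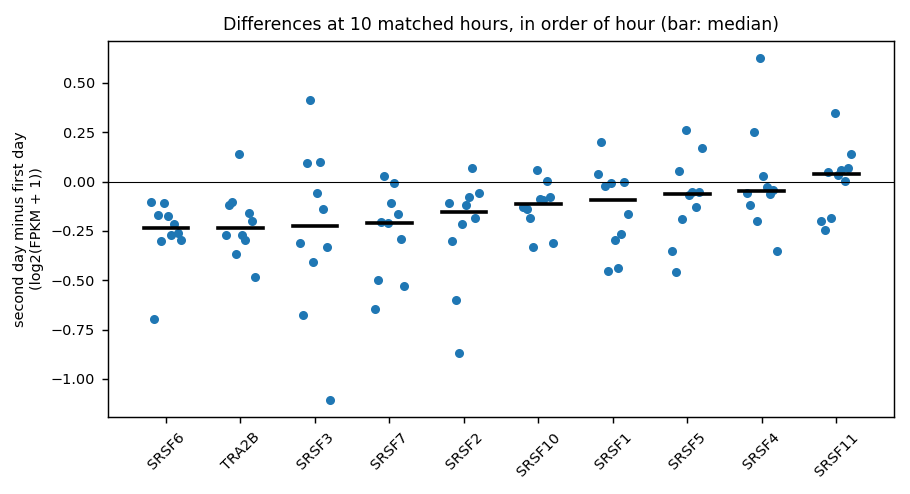
Difference in log2(FPKM + 1) between a time point of the second day and the one 24 h before it (vertical axis) for each SR gene, with 10 matched hours as blue points in order of hour and black bars at the medians. All 10 points of SRSF6 lie below 0, and the bar of SRSF11 (0.04) is the only one above 0.

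Over the 22 time points without the STRIPEs the SR genes varied more than most and largely in the same direction. The coefficient of variation was 23.9% for SRSF3, 20.3% for SRSF2 and 19.1% for SRSF6, and lowest for SRSF11 (8.74%). The median was 15.7%, against 11.7% for 7169 genes whose mean reached 10 FPKM, and 8 of 10 members were above that value. SRSF11 thus had the steadiest level of the 10 at 22 time points and the largest deviation at 16 h and 18 h.

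Of the 45 pairs of members, 43 correlated above 0 over the 22 time points, with a median r of 0.51, against 0.04 over all pairs of the 7169 genes. The points share libraries and the decline over the series, so r is given as a description. The highest values were those of SRSF5 with SRSF6 (0.77), SRSF2 with SRSF6 (0.76) and SRSF10 with TRA2B (0.76), and the lowest that of SRSF3 with SRSF11 (-0.31). The genes closest to the members' mean profile were RNPS1 (r = 0.94), an RS-domain protein of the exon junction complex, CPSF6 (0.93), an RS-domain factor of polyadenylation, ANAPC15 (0.92), LDHA (0.91) and RPLP1 (0.91). Over all 24 time points CPSF6 stayed close (0.96), whereas RNPS1 went to 0.69 and RPLP1 to -0.34. Among single members, the closest genes, again named after their values were seen, were SFPQ, a paraspeckle protein, for SRSF10 (0.96), FAM168B for SRSF6 (0.96), the nucleoside transporter SLC29A1 (0.95) and the tubulin TUBB (0.94) for SRSF1, and the histone demethylase KDM2A for TRA2B (0.94).

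Some gene-level values could include reads of other genes, since the strand setting of the counting is not given in the sources used here. In GENCODE 29 SRSF2 overlaps MFSD11 on the opposite strand, SRSF11 overlaps an antisense transcript (AL353771.1), and SRSF1 overlaps AC015813.2 on the same strand. SRSF1 and SRSF10 also each have 1 named pseudogene with which reads may be shared, so their levels are the less certain for it.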

How the data were processed

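RNA sequencing of 24 K562 libraries, 1 per time point, was analysed, and each was assigned to its hour from the sample labels. The FPKM values were made by the authors with STAR and Cufflinks (Cuffnorm), on GRCh37 per the submitters' processing notes, and were used as deposited. Versions and annotation are not given in the sources used here, and the depth is unknown. The second table held scores that the authors deposited as cleaned values (Z-scores, quantile normalized). All genes in the table had at least 1 FPKM in at least 12 time points.

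The members and the gene lists were chosen with earlier results of these data known. The named genes are all members, the leading genes of each list past 2-fold, the 5 genes most like the members' mean profile, and CCNE2 and CCNB1. Others were chosen after their values were seen. One erythroid and one other-lineage marker of the lists are not reported here, and the list values leave them out.

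Deviations used log2(FPKM + 1), which understates changes of low genes, over the 12253 genes whose mean reached 1 FPKM. The rank test was run on all 12285 genes and tested on simulated data. GC content was the median over GENCODE 29 transcripts, known for 99.1% of genes, and its trend was a lowess curve with a span of 0.3. Python 3.11.15, numpy 2.4.6, scipy 1.17.1, pandas 2.3.3 and statsmodels 0.14.6 were used. Alternatives were other scalings, pseudocounts, filters, thresholds, references, periods and sets of time points. Protein sequences were not used here.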

Additional observations from a re-analysis of the deposited data

How the results depend on the processing

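The median deviation of the SR genes at 16 h and 18 h moved from 0.64 to 0.53 with median centring, 0.40 with upper-quartile scaling, 0.23 with the GC trend removed and 0.76 with 40 h and 42 h as the reference. The count at or above the limit was 2 in each setting with a 2-fold limit and 5 at 1.5-fold. Over all genes tested the count at 2-fold differed between settings. It was 1097 in the main setting, 802 with median centring, 579 with upper-quartile scaling, 613 with the GC trend removed and 1154 with 40 h and 42 h. At 1.5-fold it was 2933. The count called in the 24 h rank test was 5 without 16 h and 18 h, 5 with their PCHIP interpolation, 3 with upper-quartile scaling (SRSF1, SRSF2 and SRSF3, beside 13.5% of all genes), 0 with a 28 h period and, in an alternative chosen after seeing the data, 2 without 6 h, 16 h, 18 h and 32 h (8.64%). It was 1 with a 20 h period and 1 in the cleaned table (12.6%). With the 28 h period 437 of all 12285 genes were called and with the 20 h period 270. Leaving out 1 time point at a time, also chosen after seeing the data, gave 1 to 3 members: 3 without 18 h and 2 without 16 h, 20 h, 22 h, 24 h, 26 h, 28 h, 30 h, 32 h or 46 h. Beside SRSF1 these were SRSF2, SRSF3 or SRSF6. The share of all genes called is not given for these settings, so the counts have no background to be read against. The median difference between days lay between -0.16 and -0.12 in every setting tried, and the median correlation of pairs between 0.47 and 0.53. No paired analysis was possible because there were no replicates to pair, and the matched hours of the 2 days are time points of 1 series. Where a value moved, the cause was not tested. FPKM hold no read numbers, so what depth limits cannot be given.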
